A study of Gossypium hirsutum with 18 samples.

Results

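The genes described here encode parts of the photosystems and of the machinery that feeds on them: photosystem subunits, chlorophyll a-b binding proteins, early light-induced proteins, oxygen-evolving proteins, and the subunits and activase of Rubisco. They were taken from the authors' lists of genes that differed between ovules of 2 upland cotton genotypes, by words in the name of the best-matching described protein. The words were photosystem, chlorophyll a-b binding, early light-induced, ribulose bisphosphate, plastocyanin (early nodulin names left out) and oxygen-evolving. Within the lists the choice used the name and not the expression values, but the lists held only genes already called as different. The set was also chosen with earlier results of these data known. The choice gave 50 genes of the 11153 listed on any day. No gene named for plastocyanin itself was among them.

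The 18 RNA-seq libraries came from Gossypium hirsutum ovules, 3 per genotype and day. The groups were Xu142fl and Xu142 ovules at -1 day post-anthesis (DPA, the day before flower opening), at 0 DPA and at 1 DPA. Xu142fl is a mutant known for seeds without fuzz and lint fiber, and Xu142 is the fiber-bearing line it was found in; the labels give every sample as not treated and name neither a transgene nor the alleles behind Xu142fl. The labels do not say that replicates came from separate plants, so p-values speak of the spread among these libraries alone, and that spread may be technical.

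In a leaf, photosystem II takes electrons from water at a manganese cluster held by the oxygen-evolving proteins and passes them through an electron transport chain to photosystem I, which reduces ferredoxin. Chlorophyll-binding antenna proteins gather the light for both photosystems, and Rubisco fixes carbon dioxide with the energy obtained. The core proteins that bind the reaction-center pigments and the large Rubisco subunit are encoded in the chloroplast genome, whereas the antenna proteins, the oxygen-evolving proteins, many small subunits and the small Rubisco subunit are encoded in the nucleus. Ovules are largely non-green tissue whose plastids can carry some of these proteins.

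Values are normalised reads, that is, whole reads per gene divided by 1 factor per library, and each day was scaled on its own. The listed genes held 210953 to 257804 reads per library at -1 DPA, 130502 to 346187 at 0 DPA and 2833696 to 6388114 at 1 DPA. These sums cover the listed genes alone, and the depth of the whole libraries is unknown. Log2 ratios are Xu142fl over Xu142, taken from group means, with a standard error over 3 + 3 libraries. A gene was in a table only if the authors' adjusted p-value was below 0.05 and their log2 fold change reached 1 in either direction, so the tables do not show how many genes of the set were measured and not called. The authors' fold change was smaller than the plain ratio, most of all on the earlier days, so their criterion was stricter in effect on those days. The authors' highest listed adjusted p-value was 4.93e-05 at -1 DPA, 0.0131 at 0 DPA and 0.0497 at 1 DPA. List lengths, and absence from a list, therefore do not compare between days. Since only called genes were listed, the ovule identity of the tissue could not be checked against its defining markers. In bulk ovules, fewer cells of a type and less RNA per cell cannot be told apart.

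One library stood apart at 1 DPA. Xu142fl replicate 1 was the lowest of its group in all 10 members named for chloroplast-genome proteins and lay near the Xu142 libraries, so those members are given with and without it. The 40 other members are named for nuclear-encoded proteins. Of these, 19 lie on A-subgenome and 21 on D-subgenome chromosomes. Lower values in Xu142fl were listed for 36 of the 40 and higher values for 4 of them. The plots of single libraries show the 2 sets apart.

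**Figure D1:**
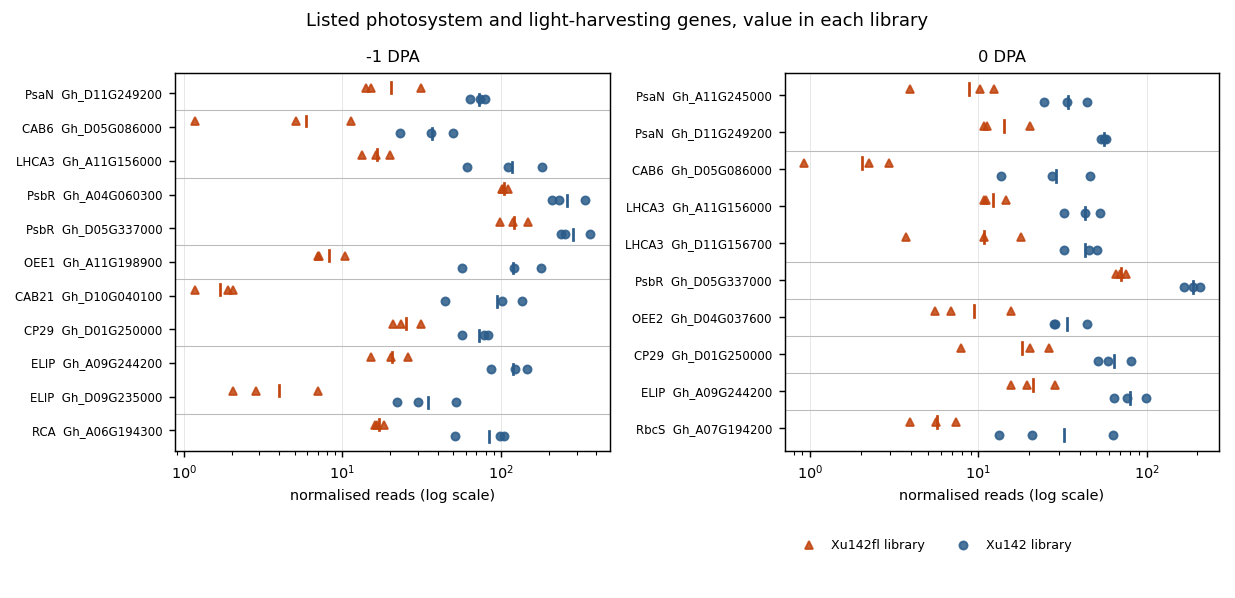
Normalised reads per library (log axis) of the 11 members listed at -1 DPA (left) and the 10 listed at 0 DPA (right), grouped by role. Triangles are Xu142fl libraries, circles are Xu142 libraries and short bars are group means of 3 libraries; no Xu142fl library reaches a Xu142 library in any of these genes.

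At -1 DPA, all 11 listed members were lower in Xu142fl, and in each of them every Xu142fl library lay below every Xu142 library. The genotypes did not overlap in any of the 872 genes listed on that day, so this does not set the members apart. The 11 covered both photosystems, both antennae, the water-splitting side, early light-induced proteins and Rubisco activase. Their log2 ratios ran between -5.79 and -1.23 with a median of -2.53, whereas the 872 genes listed on that day had a median of 1.30, 479 of them higher and 393 lower. The latter median pools both directions and follows their split. Of all genes tested on that day, 1.5% were called in either direction and 0.676% were called lower in Xu142fl. Since the members were taken from among the called genes, their own count cannot be read as a share.

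The widest gap belonged to a gene for chlorophyll a-b binding protein 21 (Gh_D10G040100, D10:3464166-3465240 on the authors' build, whose name was not given in the sources used here). The protein belongs to the main trimeric antenna of photosystem II. Its libraries held 1.17, 2.03 and 1.90 normalised reads in Xu142fl, against 102, 44.4 and 135 in Xu142. No Xu142fl library held more than 2 reads of the gene and every Xu142 library held many, with a log2 ratio of -5.79 ± 0.47 (adjusted p = 9.42e-23 in the authors' deposited table). The other listed antenna gene of photosystem II encodes CP29.1, a minor antenna protein that links the trimers to the core (Gh_D01G250000). It had 23.5, 31.5 and 20.9 normalised reads in Xu142fl, against 78.4, 56.9 and 82.6 in Xu142, a smaller gap with a log2 ratio of -1.52 ± 0.24.

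The antenna of photosystem I was represented by LHCA3 and by chlorophyll a-b binding protein 6, another protein of the belt around that photosystem. LHCA3 (Gh_A11G156000) had 19.96, 16.3 and 13.3 normalised reads in Xu142fl, against 110.1, 60.8 and 181 in Xu142, with a log2 ratio of -2.83 ± 0.46. Chlorophyll a-b binding protein 6 (Gh_D05G086000) had 1.17, 5.08 and 11.4 normalised reads in Xu142fl, against 36.4, 23.1 and 49.96 in Xu142. Its Xu142fl libraries differed widely among themselves. The log2 ratio of -2.63 became -3.54 without Xu142fl replicate 3, -2.15 without Xu142fl replicate 1 and -2.34 without Xu142 replicate 3. With 1 library left out, the edgeR refit called the gene in 3 fits only, and limma with a pseudocount of 1 did not call it (adjusted p = 0.11). PsaN (Gh_D11G249200), a lumenal subunit of photosystem I, averaged 20.2 ± 9.64 normalised reads in Xu142fl and 72.4 ± 8.13 in Xu142 (SD, n = 3 each).

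On the photosystem II side, oxygen-evolving enhancer protein 1 (Gh_A11G198900), which stabilises the manganese cluster, had 7.05, 7.11 and 10.4 normalised reads in Xu142fl, against 121, 56.9 and 179 in Xu142. The groups were far apart although the Xu142 libraries themselves spanned a wide range, and the log2 ratio was -3.86 ± 0.47 (adjusted p = 9.5e-08 in the authors' deposited table). The 2 listed genes for PsbR, the 10 kDa subunit that helps bind the oxygen-evolving proteins, had the highest values per kilobase of the 11 members and the smallest ratios. Gh_A04G060300 averaged 105 ± 4.87 normalised reads in Xu142fl and 261 ± 68.7 in Xu142, and Gh_D05G337000 averaged 122 ± 24.5 in Xu142fl and 286 ± 68.7 in Xu142 (SD, n = 3 each), with log2 ratios of -1.31 ± 0.22 and -1.23 ± 0.26.

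Early light-induced proteins bind chlorophyll transiently during greening and under strong light. Early light-induced protein 1 (Gh_A09G244200, A09:80886858-80887738) had 25.8, 20.3 and 15.2 normalised reads in Xu142fl, against 123.2, 86.8 and 145 in Xu142, with a log2 ratio of -2.53 ± 0.30. A second gene of the family (Gh_D09G235000) had 7.05, 2.03 and 2.85 normalised reads in Xu142fl, against 29.9, 22.2 and 51.9 in Xu142. Its highest Xu142fl library was replicate 1, and its log2 ratio of -3.12 became -3.83 without that library. Rubisco activase 1 (Gh_A06G194300), which clears inhibitory sugars from the Rubisco active site, had 16.4, 18.3 and 16.1 normalised reads in Xu142fl, against 98.00, 51.1 and 105 in Xu142. Its Xu142fl libraries agreed closely, and the log2 ratio was -2.32 ± 0.29 (adjusted p = 2.41e-10 in the authors' deposited table).

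The 11 members shared an order of libraries in Xu142. Replicate 3 was the highest and replicate 2 the lowest Xu142 library in all 11, and replicate 3 stood at a median of 2.05 times replicate 2. Among the 382 other genes listed as lower on that day, replicate 3 was highest in 55.8% and replicate 2 lowest in 52.9%, with a median ratio of 1.08. The Xu142fl libraries showed no such common order, with replicates 1, 2 and 3 highest in 3, 5 and 3 of the 11 members. A refit of the recovered reads with edgeR's quasi-likelihood test also called all 11, and 10 or 11 when 1 library was left out; it called 100% of all genes listed as lower on that day.

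At 0 DPA, all 10 listed members were lower in Xu142fl, again with every Xu142fl library below every Xu142 library, which held for all 864 genes listed as lower. The 10 covered PsaN, the antenna of photosystem I, PsbR, an oxygen-evolving protein, CP29.1, early light-induced protein 1 and a Rubisco small chain. Their log2 ratios ran between -3.84 and -1.42 with a median of -1.93. The 1366 genes listed on that day, 502 of them higher and 864 lower, had a median of -1.77. That median pools both directions, so it is no measure for the size of the members' ratios. Of all genes tested, 2.38% were called in either direction and 1.51% were called lower in Xu142fl. The edgeR refit called 5 of the 10, against 86.3% of all genes listed as lower on that day. It called 1 to 4 of the 10 when 1 library was left out, fewest without Xu142 replicate 2, against 56.4% to 81.2% of all genes listed as lower.

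The widest gap belonged to an antenna gene of photosystem I. Chlorophyll a-b binding protein 6 (Gh_D05G086000) had 2.25, 0.925 and 2.94 normalised reads in Xu142fl, against 27.4, 13.6 and 46.4 in Xu142, with a log2 ratio of -3.84 ± 0.63 (adjusted p = 4.01e-05 in the authors' deposited table). LHCA3 was listed from both subgenomes. The A copy (Gh_A11G156000) had 14.6, 11.1 and 10.8 normalised reads in Xu142fl, against 32.5, 52.6 and 43.3 in Xu142, and the D copy (Gh_D11G156700) had 17.96, 3.70 and 10.8 in Xu142fl, against 32.5, 50.8 and 45.4 in Xu142. The copies stood at like values in Xu142, and their log2 ratios of -1.82 ± 0.24 and -1.99 ± 0.58 differed by less than their errors.

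Both copies of the photosystem I subunit PsaN were listed as well. The A copy (Gh_A11G245000) had 12.4, 10.2 and 3.92 normalised reads in Xu142fl, against 33.5, 24.5 and 44.3 in Xu142. The D copy (Gh_D11G249200) had 11.2, 20.4 and 10.8 in Xu142fl, against 57.8, 53.5 and 55.7 in Xu142, so that its Xu142 libraries hardly differed from each other. Log2 ratios were -1.95 ± 0.48 for the A copy and -1.98 ± 0.32 for the D copy.

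In photosystem II, PsbR (Gh_D05G337000) again had the highest level per kilobase of the members, with 93.7 normalised reads per kilobase in Xu142fl and 251 in Xu142. Its libraries held 75.2, 69.4 and 65.6 normalised reads in Xu142fl, against 207, 189 and 168 in Xu142, with a log2 ratio of -1.42 ± 0.10 on the deposited scale and 0.137 with DESeq2 size factors taken from the listed genes, which turned its direction. Oxygen-evolving enhancer protein 2-1 (Gh_D04G037600), which tunes calcium and chloride binding at the water-splitting site, had 15.7, 5.55 and 6.85 normalised reads in Xu142fl, against 28.4, 28.1 and 44.3 in Xu142. Xu142fl replicate 1 was the highest of its group there, and the log2 ratio of -1.84 became -2.44 without it. The edgeR refit with all libraries did not call that gene (adjusted p = 0.116). With 1 library left out, its adjusted p in edgeR ran between 0.0425 and 0.6 and was under 0.05 in 1 fit. CP29.1 (Gh_D01G250000) had 7.86, 20.4 and 26.4 normalised reads in Xu142fl, against 58.8, 51.7 and 80.4 in Xu142.

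Early light-induced protein 1 had 15.7, 19.4 and 28.4 normalised reads in Xu142fl, against 76.1, 99.8 and 63.9 in Xu142, with a log2 ratio of -1.92 ± 0.32. The Rubisco small chain gene Gh_A07G194200 had 5.61, 7.40 and 3.92 normalised reads in Xu142fl, against 13.2, 20.9 and 62.9 in Xu142. Xu142 replicate 3 stood well above the other Xu142 libraries in that gene, and the log2 ratio of -2.52 became -1.59 without it (edgeR quasi-likelihood refit, adjusted p = 0.370).

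**Figure D2:**
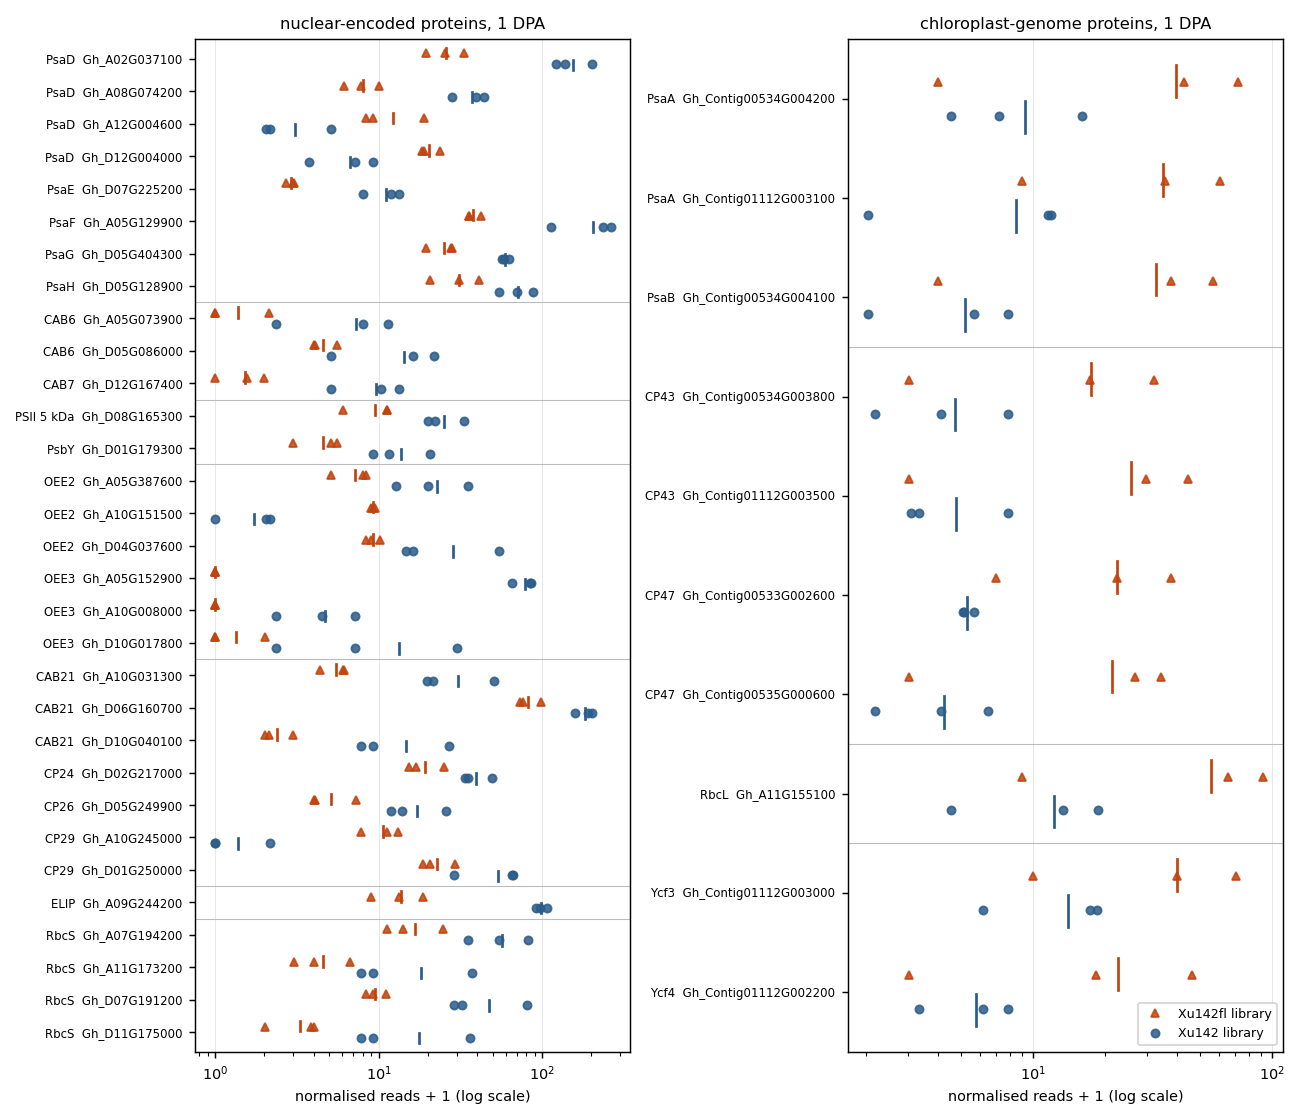
Normalised reads plus 1 per library (log axes) of the 41 members listed at 1 DPA, with 31 named for nuclear-encoded proteins on the left and 10 named for chloroplast-genome proteins on the right. Triangles are Xu142fl libraries, circles are Xu142 libraries and bars are group means; on the left the groups overlap in 2 genes, and on the right 1 Xu142fl library lies within the Xu142 range in 6 of 10 genes and below it in 3.

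At 1 DPA the list was longer, 41 members, under a criterion that was less strict in effect than on the earlier days. It was split by where the proteins are encoded. Of the 31 members named for nuclear-encoded proteins, 27 were lower in Xu142fl and 4 higher, and all 10 members named for chloroplast-genome proteins were higher. Of all genes tested on that day, 17.6% were called in either direction, 11.9% were called lower in Xu142fl and 5.7% were called higher, and of the 10793 listed genes 7288 were lower and 3505 higher. The nuclear-encoded members had a median log2 ratio of -1.98, against -1.31 for all genes listed on the day. Both medians pool higher and lower genes and so follow their split as well as the size of the ratios. The groups did not overlap in 29 of the 31, and in 97.6% of all genes listed on the day. Many of these genes were thinly covered, with a median of 90 reads over the 6 libraries together. The edgeR refit called 20 of the 27 lower members and all 4 higher ones, against 96.4% of all genes listed as lower and 88.6% of those listed as higher. It called 9 to 23 of the 27 when 1 library was left out, fewest without Xu142fl replicate 3, against 84.8% to 97.9% of all genes listed as lower.

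The nuclear-encoded subunits of photosystem I were 6 lower and 2 higher in Xu142fl, and their groups overlapped in none. PsaF (Gh_A05G129900), to which plastocyanin docks, had 41.1, 34.8 and 34.6 normalised reads in Xu142fl, against 113, 261 and 235 in Xu142, with a log2 ratio of -2.46 ± 0.34 (adjusted p = 1.49e-13 in the authors' deposited table). Xu142 replicate 1 was the lowest of its group but still above every Xu142fl library. PsaG (Gh_D05G404300) and PsaH (Gh_D05G128900), which bind the antennae of photosystem I and, in state transitions, of photosystem II, averaged 24.1 ± 4.87 and 29.9 ± 10.3 normalised reads in Xu142fl, against 58.2 ± 2.88 and 69.7 ± 16.8 in Xu142 (SD, n = 3 each). PsaE (Gh_D07G225200), on the ferredoxin side, had 2.01, 2.05 and 1.70 normalised reads in Xu142fl, against 12.4, 10.9 and 7.02 in Xu142.

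PsaD, which docks ferredoxin, was listed from 4 genes that went both ways. Gh_A02G037100 had 32.1, 18.4 and 24.4 normalised reads in Xu142fl, against 121, 199 and 137 in Xu142, and Gh_A08G074200 had 9.03, 5.12 and 6.81 in Xu142fl, against 26.9, 38.2 and 43.3 in Xu142. Both were lower in Xu142fl, with log2 ratios of -2.61 ± 0.32 and -2.37 ± 0.30. The pair on chromosome 12 was higher in Xu142fl. Gh_A12G004600 had 18.1, 8.20 and 7.37 normalised reads in Xu142fl, against 1.03, 4.09 and 1.17 in Xu142, and Gh_D12G004000 had 18.1, 17.4 and 22.7 in Xu142fl, against 6.20, 2.73 and 8.19 in Xu142. Their log2 ratios were 2.42 ± 0.82 and 1.76 ± 0.42, the first of them 3.35 without Xu142 replicate 2. For Gh_A12G004600 the adjusted p was 0.047 in the edgeR refit and 0.11 in DESeq2. With 1 library left out, edgeR called that gene in 1 fit only. In Xu142 the 2 lower copies held most of the PsaD reads of the 4 genes; per kilobase, Gh_A02G037100 stood at 161 and Gh_D12G004000 at 9.51 in Xu142, whereas in Xu142fl they stood at 26.3 and 32.3.

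The 3 listed antenna genes of photosystem I were all lower in Xu142fl, and 2 of them had 2 reads each there. Chlorophyll a-b binding protein 7 (Gh_D12G167400) had 2 reads over the Xu142fl libraries, with 1.00, 0 and 0.567 normalised reads, against 12.4, 4.09 and 9.36 in Xu142, and the ratio of Xu142 over Xu142fl was 16.8 (95% counting interval 4.15 to 147). Ratios with such an interval compare the reads of each group, pooled over its libraries, per summed library factor. They can differ from the ratio of group means. The intervals cover counting error only. The A copy of chlorophyll a-b binding protein 6 (Gh_A05G073900) had 2 reads over the Xu142fl libraries, against 10.3, 1.36 and 7.02 normalised reads in Xu142, a ratio of 12.4 (95% counting interval 2.95 to 111) on the same scale. The D copy (Gh_D05G086000) had 3.01, 3.07 and 4.54 normalised reads in Xu142fl, against 20.7, 4.09 and 15.2 in Xu142, where replicate 2 fell inside the Xu142fl range.

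The oxygen-evolving proteins, 5 lower and 1 higher, held the members without any read in Xu142fl. Oxygen-evolving enhancer protein 3 (Gh_A05G152900, A05:16501197-16507347), the smallest of the extrinsic proteins that shield the manganese cluster, had no read in any Xu142fl library, against 83.8, 64.1 and 84.2 normalised reads in Xu142. It was at least 89.4-fold lower in Xu142fl, with the floor set at 3 reads over the group, and the exact 95% counting interval, which also covers the error of the Xu142 reads, began at 78.5 (adjusted p = 3.63e-21 in the authors' deposited table). A second gene of that name, Gh_A10G008000, also had no read in Xu142fl, against 6.20, 1.36 and 3.51 normalised reads in Xu142, and was at least 4.27-fold lower on the same floor, with a counting interval that began at 3.28. The last of the 3, Gh_D10G017800, had 1 read over the Xu142fl libraries, against 6.20, 1.36 and 29.2 normalised reads in Xu142, mostly from replicate 3. On pooled reads the ratio of Xu142 over Xu142fl was 46.8 (95% counting interval 7.81 to 1905). The log2 ratio of group means, -5.17, became -3.47 without that library.

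Oxygen-evolving enhancer protein 2 was mixed like PsaD. The copies of protein 2-1 were lower in Xu142fl: Gh_A05G387600 had 7.02, 4.10 and 7.37 normalised reads in Xu142fl, against 34.1, 19.1 and 11.7 in Xu142, and Gh_D04G037600 had 8.03, 9.22 and 7.37 in Xu142fl, against 53.8, 13.6 and 15.2 in Xu142. In both, Xu142 replicate 1 was the highest library, and the log2 ratio of the second, -1.75, became -0.81 without it (edgeR quasi-likelihood refit, adjusted p = 0.456). Another gene, Gh_A10G151500, was higher in Xu142fl, with 8.03, 8.20 and 8.51 normalised reads, against 1.03, 0 and 1.17 in Xu142. Those Xu142 values were 2 reads in all, and the ratio of Xu142fl over Xu142 was 10.6 (95% counting interval 2.70 to 91.4). Of the small photosystem II subunits, PsbY (Gh_D01G179300) averaged 3.55 ± 1.35 normalised reads in Xu142fl and 12.8 ± 6.06 in Xu142, and the 5 kDa protein (Gh_D08G165300) averaged 8.49 ± 3.01 in Xu142fl and 24.1 ± 6.98 in Xu142 (SD, n = 3 each).

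Of the 7 listed antenna genes of photosystem II, 6 were lower in Xu142fl and 1 higher. The main trimeric antenna protein, chlorophyll a-b binding protein 21, was listed from 3 genes that were all lower. Gh_D06G160700 had the highest level per kilobase of the antenna genes, with 97.3, 74.8 and 72.04 normalised reads in Xu142fl, against 157, 199 and 188 in Xu142, and a log2 ratio of -1.16 ± 0.17. Gh_A10G031300 had 5.02, 5.12 and 3.40 normalised reads in Xu142fl, against 49.6, 20.5 and 18.7 in Xu142, and Gh_D10G040100 had 2.01, 1.02 and 1.13 in Xu142fl, against 25.9, 6.82 and 8.19 in Xu142. In these 2 copies Xu142 replicate 1 was the highest library, and without it their log2 ratios of -2.71 and -3.29 became -2.12 and -2.43.

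The minor antenna proteins CP24, CP26 and CP29.1, which stand between the trimers and the core, were lower in Xu142fl too. CP24 (Gh_D02G217000) averaged 18.1 ± 5.23 normalised reads in Xu142fl and 38.5 ± 8.78 in Xu142, and CP26 (Gh_D05G249900) averaged 4.11 ± 1.85 in Xu142fl and 16.2 ± 7.53 in Xu142 (SD, n = 3 each). CP29.1 (Gh_D01G250000) had 28.1, 19.5 and 17.6 normalised reads in Xu142fl, against 65.1, 64.1 and 28.1 in Xu142, and its groups overlapped through Xu142 replicate 3. The higher one was CP29.3 (Gh_A10G245000), with 12.04, 10.2 and 6.81 normalised reads in Xu142fl, against 0, 0 and 1.17 in Xu142. A single read in Xu142 stood behind that comparison, and the ratio of Xu142fl over Xu142 was 23.3 (95% counting interval 3.90 to 945). With factors taken from the listed genes (TMM or DESeq2), CP24 and Gh_D06G160700 turned to log2 ratios between 0.0428 and 0.101.

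Early light-induced protein 1 (Gh_A09G244200) had 8.03, 12.3 and 17.6 normalised reads in Xu142fl, against 96.2, 90.04 and 106 in Xu142, with a log2 ratio of -2.95 ± 0.32 (adjusted p = 2.48e-15 in the authors' deposited table). The Xu142 libraries of that gene agreed closely. The Rubisco small chain was listed from 4 genes, all lower. Gh_A07G194200 had 13.05, 23.6 and 10.2 normalised reads in Xu142fl, against 80.7, 53.2 and 33.9 in Xu142, and its D-subgenome partner Gh_D07G191200 had 10.04, 8.20 and 7.37 in Xu142fl, against 79.6, 31.4 and 28.1 in Xu142. The pair on chromosome 11 had far fewer reads: Gh_A11G173200 averaged 3.58 ± 1.88 normalised reads in Xu142fl and 17.1 ± 16.6 in Xu142, and Gh_D11G175000 averaged 2.29 ± 1.10 in Xu142fl and 16.7 ± 15.98 in Xu142 (SD, n = 3 each). Without Xu142 replicate 1 the log2 ratios of Gh_D07G191200, Gh_A11G173200 and Gh_D11G175000 became -1.80, -1.07 and -1.71, against -2.44, -2.25 and -2.87 with it. Members of this family are near-identical in sequence, as are many antenna genes and subgenome pairs, and the authors' counting may have split reads between copies.

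Xu142 replicate 1 was the highest Xu142 library in 19 of the 27 lower nuclear-encoded members (70.4%), and in 15.4% of the 7261 other genes listed as lower, among which replicate 2 was highest in 60.2%. In the members it stood at a median of 1.85 times the mean of the other two Xu142 libraries, and in the other genes at 0.798 times. By role, the median was 3.68 for the Rubisco small chains, 2.22 for the oxygen-evolving proteins, 2.14 for the antenna of photosystem I, 1.85 for the small photosystem II subunits and 1.77 for the antenna of photosystem II, but 0.979 for the single early light-induced gene and 0.830 for the photosystem I subunits; the difference between roles was not tested. The part of that library in the results was tested by leaving it out. The edgeR refit then called 15 of the 27 as lower and 3 of the 4 as higher. Of all genes listed as lower and as higher, it called 97.9% and 88.7%. The median log2 ratio of the 29 members with reads in both groups was then -1.45. Over all 31 members, the median edgeR log2 ratio was -1.89 with every library and -1.41 without that one.

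**Figure D3:**
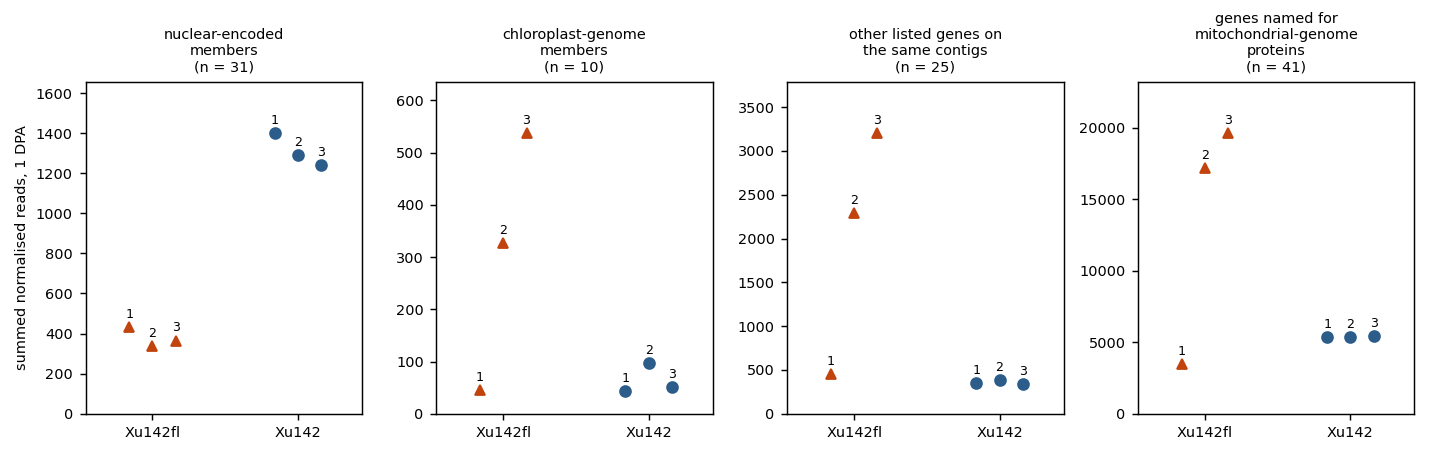
Summed normalised reads at 1 DPA per library (numbers are replicates; each vertical axis starts at 0 and has its own scale) for the nuclear-encoded members, the chloroplast-genome members, the other listed genes on the same contigs, and listed genes named for mitochondrial-genome proteins. Triangles are Xu142fl and circles Xu142 libraries. Xu142fl replicate 1 lies close to the Xu142 libraries in both middle panels and below them in the last. The last panel also takes in ribosomal proteins named as mitochondrial, which can be nuclear-encoded.

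The chloroplast-genome members were the large core proteins of both photosystems and factors that assemble photosystem I. They comprised 2 genes for PsaA and 1 for PsaB, which together carry the P700 pigment pair, 2 each for the inner antenna proteins CP43 and CP47 of photosystem II, the assembly factors Ycf3 and Ycf4, and 1 for the large Rubisco chain. Of the 10, 9 lay on 4 unplaced contigs (Contig00533, Contig00534, Contig00535 and Contig01112). The Rubisco large chain gene (Gh_A11G155100) lay on chromosome A11 and was 597 bases long as deposited. None of the 10 was listed at -1 or 0 DPA, where the criterion was stricter in effect.

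All 10 were called higher in Xu142fl, with log2 ratios between 1.59 and 2.93 and a median of 2.26, but the difference rested on 2 of the 3 Xu142fl libraries. Their summed values were 45.2, 327 and 538 normalised reads in Xu142fl replicates 1, 2 and 3, against 43.4, 96.9 and 51.5 in Xu142. The sum of Xu142fl replicate 1 was thus inside the Xu142 range, and the groups overlapped in 9 of the 10 genes. PsaB (Gh_Contig00534G004100) had 3.01, 36.9 and 55.6 normalised reads in Xu142fl, against 1.03, 6.82 and 4.68 in Xu142, with a log2 ratio of 2.93 ± 0.91 (adjusted p = 0.00191 in the authors' deposited table).

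The 2 PsaA genes had 3.01, 42.02 and 71.5 normalised reads (Gh_Contig00534G004200) and 8.03, 34.8 and 59.6 (Gh_Contig01112G003100) in Xu142fl, against 6.20, 15.01 and 3.51 and 1.03, 10.9 and 10.5 in Xu142. Both had 2253 bases as deposited, and such copies may share reads. CP43 on Contig01112 (Gh_Contig01112G003500) had 2.01, 28.7 and 43.7 normalised reads in Xu142fl, against 2.07, 6.82 and 2.34 in Xu142, and its second gene (Gh_Contig00534G003800) had 2.01, 16.4 and 31.2 in Xu142fl, against 3.10, 6.82 and 1.17 in Xu142. CP47 on Contig00533 (Gh_Contig00533G002600) was the only one of the 10 without overlap, with 6.02, 21.5 and 36.9 normalised reads in Xu142fl, against 4.14, 4.09 and 4.68 in Xu142. The other CP47 gene (Gh_Contig00535G000600) averaged 20.4 ± 16.4 normalised reads in Xu142fl and 3.24 ± 2.15 in Xu142 (SD, n = 3 each).

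The assembly factors showed the same order of libraries. Ycf3 (Gh_Contig01112G003000) had 9.03, 38.9 and 69.8 normalised reads in Xu142fl, against 5.17, 16.4 and 17.5 in Xu142, and Ycf4 (Gh_Contig01112G002200) had 2.01, 17.4 and 45.4 in Xu142fl, against 5.17, 6.82 and 2.34 in Xu142. The Rubisco large chain gene had 8.03, 64.6 and 91.3 normalised reads in Xu142fl, against 12.4, 17.7 and 3.51 in Xu142. In all 3 genes Xu142fl replicate 1 lay within or below the Xu142 range and replicates 2 and 3 above it.

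The edgeR refit called 1 of the 10, against 88.6% of all genes listed as higher on that day. It called all 10 without Xu142fl replicate 1. It called none when any other 1 library was left out, although 1 to 9 of the 10 then had an unadjusted p under 0.05. Of all 3505 genes listed as higher, these fits called 62.0% to 88.7%, with 2759 genes called without Xu142fl replicate 1. That library was the lowest of its group in all 10, so the fit without it gives no separate support for the difference. DESeq2 called 4 and limma none of the 10, with 1 of them at an unadjusted p under 0.05 in limma. Of the 3505, DESeq2 called 2937, and limma called 3022 with a pseudocount of 1 and 2674 with 0.1. Without Xu142fl replicate 1 the log2 ratios ran between 2.06 and 3.47 with a median of 2.77. Without Xu142fl replicate 3 they ran between 0.88 and 2.26, and without Xu142 replicate 2 between 1.79 and 3.49. Beyond the members, the 25 other listed genes on the same 4 contigs were all higher in Xu142fl, with sums of 457, 2292 and 3209 normalised reads in Xu142fl replicates 1, 2 and 3, against 352, 390 and 342 in Xu142. A search for names of mitochondrial-genome proteins, chosen after these values were seen, gave 33 higher and 8 lower. Their sums were 3490, 17194 and 19639 in Xu142fl, against 5355, 5393 and 5450 in Xu142. The search also took ribosomal proteins named as mitochondrial, which can be nuclear-encoded, so its genes are not a set of the mitochondrial genome alone. The nuclear-encoded members showed no such split, with sums of 431, 339 and 365 in Xu142fl, against 1402, 1291 and 1241 in Xu142. The sources used here give neither the nature of the contigs nor how RNA was selected for the libraries, and the part of either in the result was not tested.

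**Figure D4:**
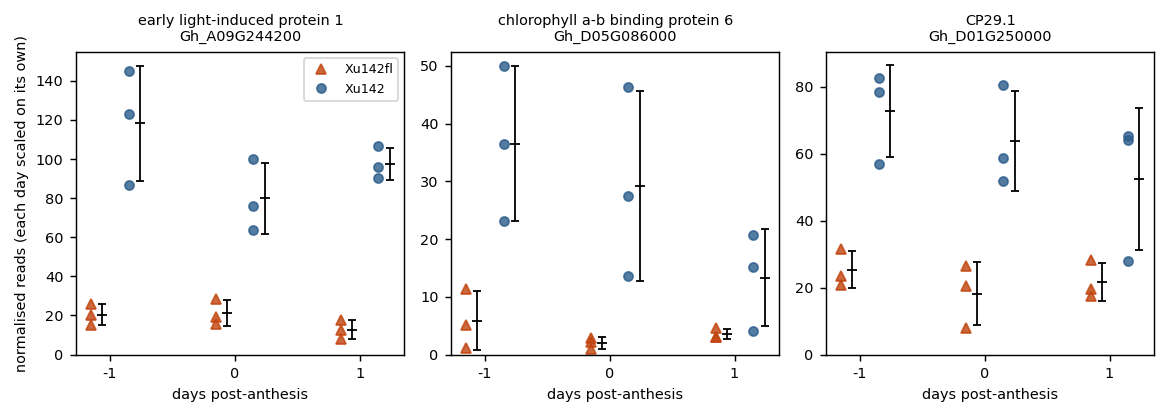
Normalised reads (linear axes from 0) of the 3 members listed on all 3 days, against days post-anthesis. Triangles are Xu142fl and circles Xu142 libraries, with mean and SD (n = 3) beside them; each day was scaled on its own, and Xu142fl lies lower on each day.

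Over the days, 41 members were listed on 1 day, 6 on 2 days and 3 on all 3. These counts also follow the criterion, which was stricter in effect on the earlier days. The 3 listed on all days were early light-induced protein 1, chlorophyll a-b binding protein 6 (Gh_D05G086000) and CP29.1. They stand for photoprotection, the antenna of photosystem I and that of photosystem II, 1 gene each. Early light-induced protein 1 had log2 ratios of -2.53 ± 0.30, -1.92 ± 0.32 and -2.95 ± 0.32 at -1, 0 and 1 DPA. Chlorophyll a-b binding protein 6 had -2.63 ± 0.79, -3.84 ± 0.63 and -1.91 ± 0.57, and CP29.1 had -1.52 ± 0.24, -1.81 ± 0.48 and -1.27 ± 0.40 on the same days. The ratios of CP29.1 spanned the narrowest range of the 3.

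A genotype-by-day test in edgeR, over all genes listed on both days of a pair, called none of the members, and 15.2%, 45.5% and 37.6% of all genes it covered between -1 and 0, 0 and 1, and -1 and 1 DPA. It covered 6 members between -1 and 0 DPA, 5 between 0 and 1 DPA and 4 between -1 and 1 DPA, and at an unadjusted p under 0.05 it gave 0, 1 and 0 members. The 1 was early light-induced protein 1, with a difference of -0.98 on the log2 scale between 1 and 0 DPA (adjusted p = 0.0949, and 0.0494 to 0.261 over the alternatives, the lowest without Xu142fl replicate 3 at 1 DPA). The ratio of chlorophyll a-b binding protein 21 (Gh_D10G040100) differed by 2.37 between 1 and -1 DPA (adjusted p = 0.207), and limma called it with an adjusted p of 0.00852. These fits do not show that the genotype gap was equal on the days.

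Both subgenome copies of a gene were sometimes listed on the same day. There were 8 such pairs over 0 and 1 DPA, matched by name and chromosome number, and in all 8 both copies lay on the same side of Xu142, as they did in 94.6% of 2090 such pairs among the other named genes listed on those days. They included the LHCA3 and PsaN pairs at 0 DPA and the chromosome 12 PsaD pair, the only one that was higher in Xu142fl. Same-named genes on A- and D-subgenome chromosomes of unlike number were not counted as pairs. Examples were the PsbR genes Gh_A04G060300 and Gh_D05G337000 at -1 DPA. None of the 6 members listed on 2 days or the 3 listed on all 3 was called higher on 1 day and lower on another. The other 41 were listed on 1 day and could not change side. The share of all listed genes that changed side was not counted.

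**Figure D5:**
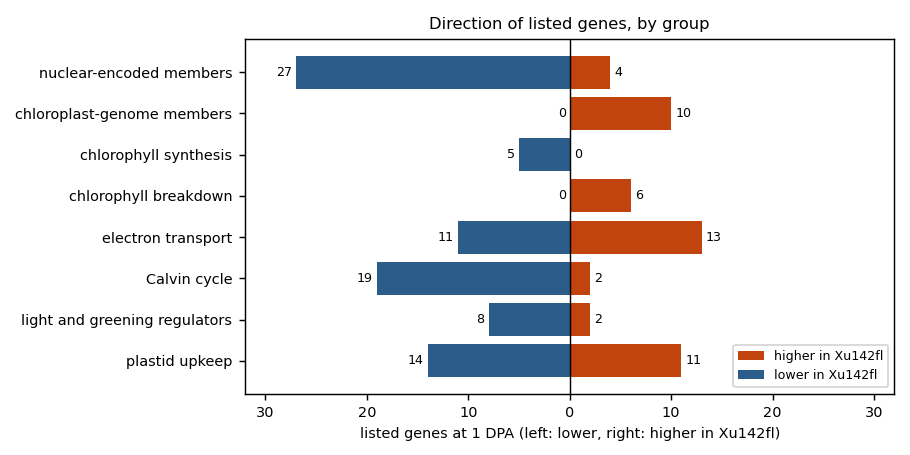
Listed genes at 1 DPA by group, with those lower in Xu142fl to the left and those higher to the right of 0 (number of genes). Calvin cycle genes and nuclear-encoded members lie mostly to the left, and chlorophyll breakdown genes and chloroplast-genome members to the right.

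Genes of neighbouring pathways were counted by lists of name words. Of all listed genes, 45.1%, 63.3% and 67.5% were lower in Xu142fl at -1, 0 and 1 DPA, and no list was tested against these shares. At 1 DPA, the Calvin cycle list, with carbonic anhydrases, had 2 members higher and 19 lower in Xu142fl, with a median log2 ratio of -1.83. The largest difference was that of a carbonic anhydrase, which interconverts carbon dioxide and bicarbonate (Gh_D12G294200), with 33.04 ± 1.97 normalised reads in Xu142fl and 1086 ± 129 in Xu142 (SD, n = 3 each). Glyceraldehyde-3-phosphate dehydrogenase A (Gh_D07G258000), the reducing enzyme of the cycle, averaged 2.44 ± 0.503 normalised reads in Xu142fl and 68.97 ± 50.7 in Xu142, and at 0 DPA 7.20 ± 3.40 in Xu142fl and 43.9 ± 6.89 in Xu142 (SD, n = 3 each). At -1 and at 0 DPA the list had 3 members each, all lower, led at -1 DPA by beta carbonic anhydrase 2 (Gh_D12G294100) with a log2 ratio of -2.55 ± 0.26. Beta carbonic anhydrase 5 (Gh_A05G204500) changed side, with log2 ratios of -1.42 ± 0.14, -1.59 ± 0.18 and 1.75 ± 0.73 at -1, 0 and 1 DPA. The last of them became 1.38, 1.47 and 2.76 without Xu142 replicates 1, 2 and 3, in that order.

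Chlorophyll breakdown genes went the other way. All 6 listed at 1 DPA were higher in Xu142fl, with a median log2 ratio of 1.79: 3 for STAY-GREEN, which removes magnesium from chlorophyll, 2 for pheophytinase, which cuts off the phytol tail, and 1 for the chlorophyll b reductase NYC1. Pheophytinase Gh_D12G115400 had 219, 258 and 272 normalised reads in Xu142fl, against 78.6, 105 and 131 in Xu142. NYC1 (Gh_D05G024900) had 255, 278 and 309 in Xu142fl, against 143, 131 and 132 in Xu142, and the STAY-GREEN gene Gh_A03G021700 had 20.1, 32.8 and 34.04 in Xu142fl, against 0, 10.9 and 1.17 in Xu142. No library of one group reached the other in these 3 genes, as was so for 96.1% of all genes listed as higher on that day. None of the 6 was listed at -1 or 0 DPA, where the criterion was stricter in effect.

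The chlorophyll synthesis list had 5 members at 1 DPA, all lower with a median log2 ratio of -1.27, of which 2 are named for a translocon component and are not enzymes of the pathway. Protochlorophyllide reductase, the light-dependent step, went both ways between genes and days: Gh_D13G166400 averaged 312 ± 29.6 normalised reads in Xu142fl and 659.7 ± 73.9 in Xu142 at 1 DPA, and Gh_D05G369600 averaged 184 ± 9.97 in Xu142fl and 77.7 ± 11.4 in Xu142 at -1 DPA (SD, n = 3 each). Glutamate-1-semialdehyde aminomutase, which makes the first dedicated precursor of the pathway, gave the largest ratio, -1.44 ± 0.17 on the log2 scale (Gh_Contig00597G000500).

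The electron transport list had 13 members higher and 11 lower at 1 DPA. The 10 on contigs were all higher, with sums of 38.1, 264 and 517 normalised reads in Xu142fl replicates 1, 2 and 3, against 43.4, 46.4 and 35.1 in Xu142, so that Xu142fl replicate 1 again lay with Xu142. The 14 placed on chromosomes were 3 higher and 11 lower, 3 of them ferredoxins named as mitochondrial. Of the genes with a read in both genotypes, the largest ratio was that of subunit I of the plastid NAD(P)H dehydrogenase on Contig00533 (Gh_Contig00533G001600), which rested on 1 read in Xu142, with 0, 10.2 and 16.5 normalised reads in Xu142fl, against 0, 1.36 and 0 in Xu142. Leaf-type ferredoxin-NADP reductase (Gh_D11G188000), the last step of the chain, averaged 1.09 ± 1.14 normalised reads in Xu142fl and 8.96 ± 6.78 in Xu142 (SD, n = 3 each). The light and greening regulators were 2 higher and 8 lower, beside 67.5% lower among all genes listed on that day. Among them COP1 (Gh_D10G010700), a repressor of light responses, averaged 11.8 ± 1.42 normalised reads in Xu142fl and 112 ± 18.9 in Xu142, and GLK2 (Gh_D04G162000), an activator of photosynthesis genes, averaged 23.5 ± 3.62 in Xu142fl and 9.28 ± 3.04 in Xu142 (SD, n = 3 each).

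The plastid upkeep list was 11 higher and 14 lower at 1 DPA, 6 of the higher ones on contigs, and in all 6 Xu142fl replicate 1 was at or under the highest Xu142 library. Of its genes with reads in both genotypes, Gh_D09G168300, named for the short-chain dehydrogenase TIC 32, had the largest ratio and averaged 2.09 ± 2.69 normalised reads in Xu142fl and 819.6 ± 64.96 in Xu142 (SD, n = 3 each). The plastid ribosomal protein gene Gh_D12G060600 (L31) was higher in Xu142fl on all 3 days and at 1 DPA averaged 21.3 ± 4.40 normalised reads in Xu142fl (SD, n = 3), against no read in Xu142. Light and plastid lists were short on the other days. The regulator list held 1 gene at -1 and at 0 DPA, phytochrome kinase substrate 1 (Gh_A03G119000), lower on both days with log2 ratios of -1.63 ± 0.28 and -1.64 ± 0.31. The upkeep list held 2 genes at -1 DPA, 1 in each direction, and 5 at 0 DPA, 1 higher and 4 lower, led by L31 at -1 DPA (25.8, 19.3 and 22.8 normalised reads in Xu142fl, against 0.933, 0 and 0, a single read, in Xu142) and TIC 32 (Gh_D09G168300) at 0 DPA (log2 ratio -4.18 ± 0.58).

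Genes named as markers of other cell types were listed as well. Guard cells are green cells of the epidermis, and the stomata list had 0, 3 and 11 listed genes at -1, 0 and 1 DPA, all 3 higher at 0 DPA and 7 higher and 4 lower at 1 DPA. Its summed level at 1 DPA was 624 to 700.5 normalised reads in Xu142fl libraries, against 707 to 1029 in Xu142 libraries. The 4 lower genes were named for the EPIDERMAL PATTERNING FACTOR-like peptides EPFL9 and EPFL2 and held much of the Xu142 sum. Of these, Gh_D05G215300 averaged 229 and Gh_D11G152300 averaged 216 normalised reads in Xu142. The 7 higher genes included those for SPEECHLESS, FAMA and EPIDERMAL PATTERNING FACTOR 2, so the sum does not stand for the list. The largest ratio was that of a gene for EPFL9, a peptide that promotes stomata (Gh_A11G151300), which averaged 2.20 ± 3.32 in Xu142fl and 45.3 ± 19.8 in Xu142 (SD, n = 3 each). The guard cell factor FAMA (Gh_A10G118200), named after its values were seen, averaged 34.4 ± 8.68 in Xu142fl and 4.37 ± 0.994 in Xu142 (SD, n = 3 each). The epidermis list had 2 and 4 genes at -1 and 0 DPA, all lower, and 9 higher and 9 lower at 1 DPA, with sums of 25419 to 32019 normalised reads in Xu142fl libraries and 82237 to 92236 in Xu142 libraries. The 2 genes for Protodermal factor 1 held 55.9% to 63.7% of these sums in Xu142fl and 87.1% to 88% in Xu142, and the remaining genes of the list summed to 11217 to 13104 in Xu142fl libraries and 10632 to 11243 in Xu142 libraries. The 2 HDG11 genes of that list had no read in Xu142fl at 1 DPA. The pollen list was 5 higher and 8 lower and the seed list 3 higher and 4 lower at 1 DPA, beside 67.5% lower among all genes listed on that day. The part of these cell types in the photosystem results was not tested.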

How the data were processed

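RNA from cotton ovules was sequenced on an Illumina platform from standard libraries, per the labels. The authors deposited 3 tables, 1 per day, that hold called genes only; the sources used here name no aligner, counter, test, strand setting, RNA selection or genome build. The deposited library columns hold a signal, normalised reads, in which every value was a whole multiple of 1 step per library within a tolerance of 0.001 (100% of values), so reads could be recovered. The deposited log2 fold change is Xu142 over Xu142fl, per the file headers. Log2 ratios given here are Xu142fl over Xu142, of group means. Ratios with a counting interval are of pooled reads per summed library factor. The deposited p-value and adjusted p-value columns are the authors' own. The authors' criteria were an adjusted p-value under 0.05 and a log2 fold change of at least 1 in size, and the highest adjusted p-values were 4.93e-05, 0.0131 and 0.0497 at -1, 0 and 1 DPA. From the ratio of p to adjusted p, 58161, 57326 and 61474 genes were tested on those days.

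Since no table holds all genes, the authors' calls are the main result, and the edgeR test planned for full count tables was used only as a refit. Recovered reads were refitted with edgeR 4.0.16 (quasi-likelihood), DESeq2 1.42.0 and limma 3.58.1 in R 4.3.3, with p-values adjusted over the genes tested by the authors; these scripts were tested on simulated data. Other alternatives were listed-gene scaling factors, a mean of at least 10 normalised reads, a stricter threshold, each library left out and a replicate block. Same-numbered libraries of the genotypes were not paired by the labels. The members, the lists and the tests were chosen with earlier results of these data known. Named genes were, per role and day, the 3 with the largest ratio and the 1 with the highest mean per kilobase, all of roles with 4 or fewer, every member listed on more than 1 day, and per pathway list and day the 1 with the largest ratio; others named from the lists were chosen after their values were seen. Protein names mark the closest described protein. Counting intervals are exact at a level of 95%, and a count of 0 was set to 3 reads. No member was matched in the RefSeq gene table at hand, and no sequence is shown.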

Additional observations from a re-analysis of the deposited data

How the results depend on the processing

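At -1 DPA the count of 11 lower members stayed within 8 to 11 under all alternatives. No gene listed on that day had an authors' adjusted p-value above 4.93e-05, so these members had more room to stay called. At 0 DPA the 10 lower members became 5 in the edgeR refit, 4 and 1 in limma with pseudocounts of 1 and 0.1, 0 with TMM or DESeq2 factors taken from the listed genes (DESeq2 refit: 10), and 1 to 4 without 1 library. At 1 DPA the 27 lower nuclear-encoded members became 16 at an adjusted p under 0.01 and in DESeq2, 15 in limma with 0.1, 4 with either set of listed-gene factors, and 9 to 23 without 1 library. The 4 higher ones became 1 with a mean of at least 10, at an adjusted p under 0.01 and in DESeq2, and 2 to 3 without 1 library. The 10 chloroplast-genome members became 5 at an adjusted p under 0.01, 4 in DESeq2, 1 in edgeR, 0 in limma with either pseudocount, and 0 to 10 without 1 library. Between days, 0 members became 1 in limma (-1 and 1 DPA) and 0 to 1 without 1 library (0 and 1 DPA). Listed-gene factors moved the median log2 ratio of all listed genes by -0.17 (TMM) and -1.10 (DESeq2) at -1 DPA, 1.10 and 1.55 at 0 DPA and 1.20 and 1.24 at 1 DPA. Calls were then 478 higher and 393 lower, or 299 and 393, at -1 DPA, 501 and 303, or 499 and 172, at 0 DPA, and 3505 and 2411, or 3503 and 2317, at 1 DPA. These factors rest on genes chosen for differing. The cause of the other changes was not tested. With a replicate block, edgeR called 11, 3, 20 and 4 of the nuclear-encoded sets in the order above and 6 chloroplast-genome members. Same-numbered libraries correlated at 0.00598 to 0.0398, 0.0967 to 0.189 and -0.0203 to 0.0604 at -1, 0 and 1 DPA, so the numbers were not taken as pairs; at 0 DPA each library correlated best with its own number. Of 62 single ratios, 21 lost the call in the edgeR refit and 18 with the block, and none turned its sign there. The ratios of members with few reads at 1 DPA carry a wide counting error, and the part of library depth in this was not tested.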
